A study of Mus musculus with 14 samples.

Results

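The 200 mRNAs described here are those with the lowest level in ovulated WT mouse oocytes relative to WT oocytes at the germinal vesicle (GV) stage. They were taken from 5785 eligible genes, out of 16196 genes present in the tables of both stages. A gene was eligible if its mean in GV WT oocytes was at least 10 CPM, which is the count scaled to a common library total. Symbols with 14 prefixes that mark ribosomal, respiratory-chain, proteasome, mitochondrial import, initiation factor, RNA polymerase and small nuclear ribonucleoprotein genes were left out. Genes of these families under other prefixes, such as Snrnp25, were not left out. Genes were ranked by the ratio of the ovulated to the GV mean in WT, with 0.1 CPM added to each, and the 200 lowest ratios were kept. The genes were thus chosen by their measured WT levels at both stages. The ratio is given below in percent as the share remaining, always relative to the GV mean of the same genotype.

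RNA was sequenced from 14 oocyte libraries, with 3 from ovulated CKO oocytes, 4 from GV CKO oocytes, 3 from ovulated WT oocytes and 4 from GV WT oocytes. CKO oocytes came from Mff fl/fl mice that carry Gdf9-Cre, and WT oocytes from Mff fl/fl mice, so the floxed allele is shared by all 4 groups and the Cre transgene is present in CKO only. The Gdf9 promoter drives Cre in oocytes from early follicles on, so the gene is lost while the oocyte grows. The protein MFF sits on the outer membrane of mitochondria, where it brings in the GTPase DRP1 for their division.

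A fully grown GV oocyte is arrested in meiotic prophase and is almost silent in transcription. Maturation therefore runs on stored maternal mRNA, and much of that store is removed between the GV stage and ovulation. Removal starts with shortening of the poly(A) tail by the CCR4-NOT deadenylase, brought to mRNAs by adaptors such as BTG4. Other stored mRNAs carry the cytoplasmic polyadenylation element (CPE) in the 3' UTR and gain a longer tail. Libraries of this kind are primed on the poly(A) tail, so an mRNA that was degraded and one that was only deadenylated cannot be told apart.

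The annotated 3' ends of 8 of the 200 mRNAs are shown as examples of ends with a poly(A) signal and no CPE beside it. They were chosen as the most reduced named transcript with an annotated end (Upp1), the 3 most abundant (Clec16a, Hexdc, Hddc3), the egg genes Zp2 and Padi6, and 2 with a high share remaining in CKO (Chchd2, Hint1). Each is the last stretch of the annotated transcript around the poly(A) signal, 30 bases, sense strand, from GENCODE M21 on GRCm38, and capitals mark the poly(A) signal AATAAA.
Upp1: gaagcctctgcaactcctgggcAATAAAtc
Clec16a: ttcttgtaatttgaaacttggcAATAAAaa
Hexdc: tgtagagctttattacttctgaAATAAAaa
Hddc3: tctacaatactcctgcctctgcAATAAAgc
Zp2: ttggacttgcaAATAAAgagactgcagtta
Padi6: gtaaacaaattgccatagagccAATAAAgc
Chchd2: gttgtgattgtgagttaaaaaaAATAAAtt
Hint1: gatcatttaaaattctgtgcctAATAAAag
The ends of Gdf9, an oocyte growth factor, and Cnot7, a CCR4-NOT deadenylase subunit, both outside the 200, were chosen because they hold a CPE next to the signal, with the CPE TTTTAT also in capitals. They show what a CPE looks like and stand for neither set. Among 3' UTRs of at least 100 bases, a CPE lay in the last 100 bases in 9.36% of those in the 200 genes. In the other eligible genes it did so in 22.6%. Of the 194 of the 200 genes with an annotated 3' UTR, 56.2% had a poly(A) signal in the last 50 bases.
Gdf9: ctgtggTTTTATgtgacggaagAATAAAct
Cnot7: gtcttaaggtacaTTTTATatcAATAAAaa
The Upp1 stretch lies at chr11:9136124-9136153 on the plus strand, that of Zp2 at chr7:120132359-120132388 on the minus strand, and that of Chchd2 at chr5:129881171-129881200 on the minus strand. The Gdf9 stretch lies at chr11:53437860-53437889 on the plus strand and that of Cnot7 at chr8:40493039-40493068 on the minus strand. The share of Gdf9 remaining was 76.2% in CKO and 103% in WT, and that of Cnot7 was 210% in CKO and 258% in WT.

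Library totals lay between 26575593 and 28847424 counts, so that 1 CPM stands for 26.6 to 28.8 reads. Mff was at 39.2 to 66.8 CPM in ovulated CKO against 346 to 723 CPM in ovulated WT libraries, and at 34.0 to 38.02 CPM in GV CKO against 531 to 663 CPM in GV WT libraries. All 15 oocyte markers measured were above 0 in every library. The granulosa and cumulus markers summed to 557 to 956 CPM in ovulated CKO and 1034 to 1327 CPM in ovulated WT libraries. They summed to 666 to 797 CPM in GV CKO and 612 to 822 CPM in GV WT libraries. These sums cover 20 markers measured after ovulation and 27 at the GV stage, so they are not alike between stages. None of the 200 genes is on that marker list, which does not hold every gene of those cells. Of its defining markers, Fshr was at most 1.29 CPM in any library, while Cyp19a1 was at 52.9 to 71.0 CPM in ovulated CKO and 71.0 to 91.6 CPM in ovulated WT libraries, against 32.4 to 56.9 CPM in GV libraries. Kitl was at 7.42 to 14.6 CPM in ovulated and 1.04 to 5.31 CPM in GV libraries. Inha was at 1.05 to 11.5 CPM in GV CKO and 0.367 to 4.96 CPM in GV WT libraries and had no values after ovulation. GV CKO 1, GV CKO 2 and GV WT 2 stood apart from the other GV libraries, with 35.2%, 42.4% and 38.1% of counts in their 100 most abundant genes against 48.2% to 51.1% in the other 5. Ovulated CKO 2 stood apart in the share remaining of the 200 mRNAs, so CKO shares of single genes and role groups that move by over 1.5 times without it are given both ways. It also had the lowest share of counts in its 100 most abundant genes, at 24.99% against 29.5% to 35.4% in the other ovulated libraries, and the lowest sum of granulosa and cumulus markers, at 557 CPM. The part of these differences in the results was not tested.

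In GV oocytes the 200 mRNAs held a large part of all counts. They took 13.6%, 15.3%, 23.7% and 23.2% of all counts in GV CKO libraries and 25.4%, 17.1%, 23.9% and 24.7% in GV WT libraries. In ovulated oocytes they took 0.994%, 1.62% and 0.968% in CKO and 0.810%, 0.901% and 0.626% in WT libraries. The 3 libraries with the lower GV shares are those named above as standing apart. Clec16a, Hexdc and Hddc3 alone gave 7.84% to 16.3% of all counts in GV libraries and 0.362% to 0.573% in ovulated libraries. None of the values of these 3 genes was whole, so reads may have been divided between loci. Their levels, and with them the summed shares, are uncertain.

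**Figure D1:**
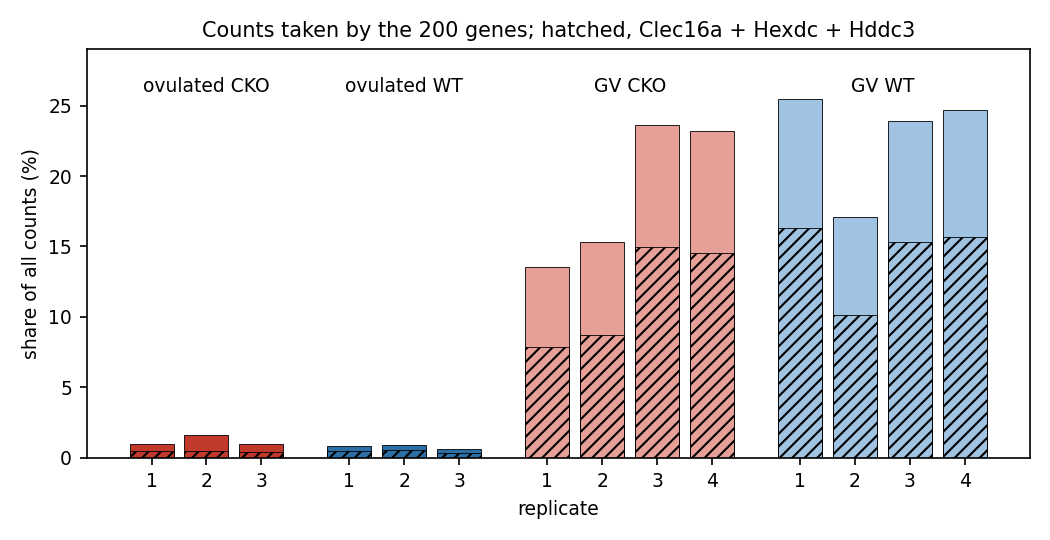
Share of all counts (%, linear axis from 0) taken by the 200 genes in each of 14 libraries, by group and replicate, with the hatched part from Clec16a, Hexdc and Hddc3. Ovulated libraries lie between 0.626% and 1.62% and GV libraries between 13.6% and 25.4%. None of the values of Clec16a, Hexdc and Hddc3 was whole, so the hatched part is uncertain.

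The values that chose the genes are given as a description only. The share remaining in WT had a median of 3.28% over the 200 genes, from 0.191% for LOC100862468 to 4.75% for Kat8, which encodes a histone H4 acetyltransferase. By edgeR in WT, 200 of the 200 genes were called lower (37.8% of all genes tested) and 0 higher (33.2%), which only restates the choice. The last genes inside the limit were Saysd1 at 4.68%, Pin4 at 4.69%, Pmpcb at 4.72%, Speer4c at 4.74% and Kat8. The first outside it were Gulo and Ltbp2 at 4.78%, Glrx3 at 4.79%, Mul1 at 4.81% and Rdh11 at 4.82%, so the limit cuts through a continuous range. The median level of the 200 genes was 6.75 CPM in ovulated CKO, 49.5 CPM in GV CKO, 1.38 CPM in ovulated WT and 47.3 CPM in GV WT oocytes. Of the 1998 genes listed in the GV table only, 1 with no left-out symbol, Gm16367 at 22.1 CPM in GV WT, would have reached the minimum, and it could not enter the ranking.

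LOC100862468, a predicted gene, had the lowest WT ratio. It had 19.0, 26.99 and 10.1 CPM in ovulated CKO against 44.3, 89.1, 66.3 and 43.8 CPM in GV CKO libraries, and 0 counts in all 3 ovulated WT libraries against 53.0, 62.6, 52.6 and 41.1 CPM in GV WT libraries. The limit of 3 counts over the 3 ovulated WT libraries is 0.0369 CPM, which makes the WT level at least 1417-fold lower than in GV WT oocytes. None of the values of this gene above 0 was whole, so reads may have been divided between loci and its level is uncertain. The same holds for 26 of the 200 genes, among them Ppil3, Rnaset2a, Chchd2, Hddc3, Clec16a, Hexdc and Dnajc14. In 39 genes (19.5%) most of the values were not whole, close to the 20.1% of all eligible genes.

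Upp1 (Entrez 22271, chromosome 11, 9118008 to 9136170) encodes uridine phosphorylase, which splits uridine for salvage. It had 5.07, 13.8 and 8.80 CPM in ovulated CKO against 272, 422, 541 and 463 CPM in GV CKO libraries, and 1.61, 0.661 and 1.84 CPM in ovulated WT against 451, 432, 516 and 467 CPM in GV WT libraries. The stages did not overlap in either genotype, and every ovulated CKO library lay above every ovulated WT library. The WT levels in these orders took part in the choice. Within CKO it fell by 6.07 on the log2 scale (SE 0.51, edgeR adjusted p = 8.48e-06). Cpsf4l (Entrez 52670, chromosome 11, 113698171 to 113710167), a paralog of a subunit of the cleavage and polyadenylation complex, had 14.3, 85.7 and 29.47 CPM in ovulated CKO against 889, 1474, 1997 and 2030 CPM in GV CKO libraries. In WT it had 7.29, 6.79 and 6.18 CPM in ovulated against 2088, 1194, 1800 and 2141 CPM in GV libraries. Within CKO it fell by 5.81 (log2, SE 0.65, edgeR adjusted p = 1.95e-05), with the 2 stages far apart in every library.

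Others of the first 16 ranks differed in how far ovulated CKO 2 stood from ovulated CKO 1 and 3. Ptgis, which encodes prostacyclin synthase, had 0.359, 6.52 and 0.368 CPM in ovulated CKO against 17.5 to 33.4 CPM in GV CKO libraries, and 0.220, 0.220 and 0.150 CPM in ovulated WT against 26.3 to 33.1 CPM in GV WT libraries. Its share was 9.58% in CKO and 1.77% without ovulated CKO 2, and it fell by 4.02 on the log2 scale within CKO (edgeR adjusted p = 0.000925). The RIKEN cDNA gene 4930430F08Rik had 0.128, 3.62 and 0.113 CPM in ovulated CKO and 0.222, 0.301 and 0.172 CPM in ovulated WT libraries, so that its share of 4.01% in CKO was 0.637% without ovulated CKO 2, and it fell by 5.34 within CKO on the log2 scale (edgeR adjusted p = 0.000452). Fam162a, a mitochondrial protein, had 3.84, 19.3 and 6.59 CPM in ovulated CKO and 0.915, 0.624 and 1.24 CPM in ovulated WT libraries, with every CKO library above every WT library. Yif1a, a membrane protein of traffic to the Golgi, was likewise apart, at 1.62, 6.74 and 3.13 CPM in ovulated CKO and 0.549, 0.367 and 0 CPM in ovulated WT libraries. Rnaset2a, a lysosomal ribonuclease, overlapped, at 8.42, 51.4 and 33.4 CPM in ovulated CKO and 9.82, 7.26 and 8.93 CPM in ovulated WT libraries. Within CKO, on the log2 scale, Fam162a fell by 4.06 (edgeR adjusted p = 2.45e-05). Yif1a fell by 3.87 (edgeR adjusted p = 2.57e-05). Rnaset2a fell by 4.88 (edgeR adjusted p = 2.20e-05). The deposited values of 4930430F08Rik and Rnaset2a were not whole counts in any library, so reads shared with other genes may be divided there and their levels are uncertain.

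Whether Mff-null oocytes lose the same mRNAs was tested in CKO libraries alone, since these played no part in choosing the genes. Of the 199 genes with enough counts, 198 fell in ovulated CKO relative to GV CKO oocytes and 0 rose (edgeR quasi-likelihood, Benjamini-Hochberg adjusted p under 0.05 over 12657 genes). Over all genes tested, 27.9% fell and 23% rose. The count of 0 rises was also 0 at an unadjusted p under 0.05 and with DESeq2, which called 197 falls. The median log2 fold change in CKO was -3.62 over the 200 genes (-4.35 without ovulated CKO 2) and -0.08 over all genes tested.

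Scaling to library totals in place of TMM factors gave 188 falls and a median of -3.08 for the 200 genes. That scaling moved the median of all genes to 0.35 and the split of calls to 38.1% lower and 61.9% higher, against 54.8% lower and 45.2% higher with TMM. Relative to the median of all genes the 200 genes lay at -3.43 with library totals and at -3.54 with TMM. In 188 of the 200 genes every ovulated CKO library was below every GV CKO library, where 21% of all genes tested had this order. Without ovulated CKO 2 the count was 197. The stages were deposited in separate tables, so stage and any difference in their handling cannot be told apart.

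The 2 genes without a call were Snrnp25 and Gsto2. Snrnp25, a protein of the minor spliceosome, had 5.57, 21.4 and 13.8 CPM in ovulated CKO against 26.1, 22.6, 12.7 and 11.7 CPM in GV CKO libraries, so the stages overlapped. Its log2 fold change was -0.85 (SE 0.40, edgeR adjusted p = 0.0903), and it was called without ovulated CKO 2 (adjusted p = 0.0255). In WT it had 0.806, 0.514 and 0.112 CPM in ovulated against 9.32, 18.4, 14.9 and 10.6 CPM in GV libraries. Gsto2, a glutathione transferase, did not pass the filter on low counts. It had 9.23, 0 and 0 CPM in ovulated CKO against 30.6, 0.150, 0.0736 and 0.108 CPM in GV CKO libraries. In WT it had 0.586, 0 and 0 CPM in ovulated against 24.96, 25.1, 0.147 and 0.250 CPM in GV libraries. It was thus high in 1 GV CKO and 2 GV WT libraries and close to 0 in the others, and its place in the ranking rests on those 2.

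By the means, the share remaining was higher in CKO than in WT for nearly all of the 200 mRNAs, an order that the choice of genes leans toward. The share remaining had a median of 12.0% in CKO (quartiles 7.47% and 18.1%) and 3.28% in WT, and it was higher in CKO for 198 of the 200 genes, by a median of 3.84-fold, or 1.94 on the log2 scale (1.11 without ovulated CKO 2). The WT value is low by construction, since it chose the genes, and this leans the count of 198 upward. The proportion of eligible genes with a higher share in CKO was not computed. Per library the median share was 6.04%, 21.7% and 7.55% in ovulated CKO 1, 2 and 3, and 3.31%, 3.08% and 2.82% in ovulated WT 1, 2 and 3. Ovulated CKO 2 decides much of the mean: without it the CKO median was 6.80%, and the share was higher in CKO for 192 genes. It was the highest of the 3 CKO libraries in 187 of the 200 genes, against 50.4% of eligible genes.

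**Figure D2:**
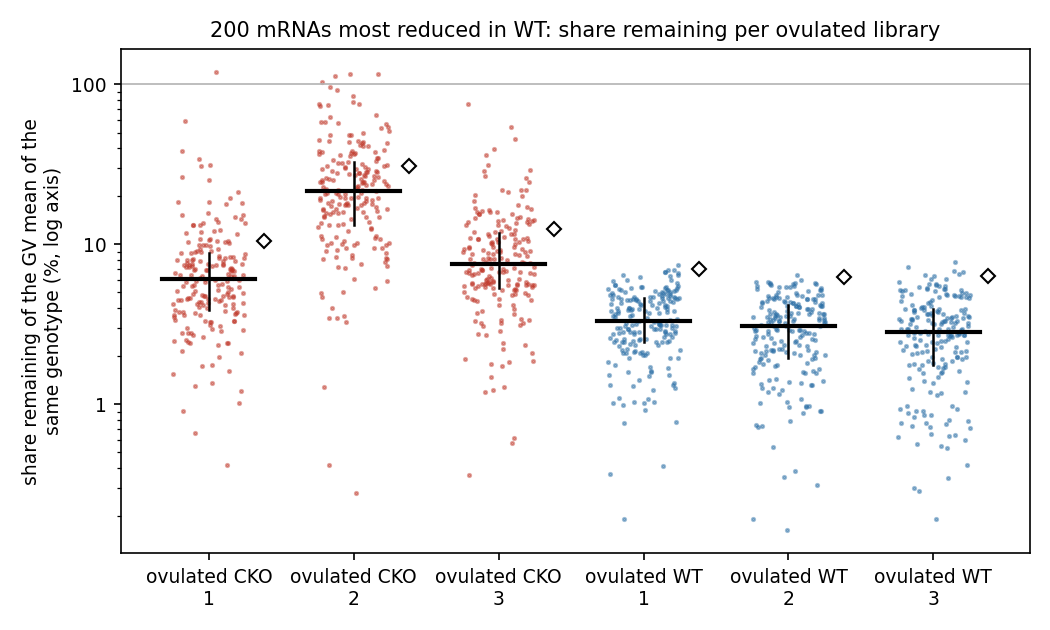
Share of the GV mean of the same genotype remaining (%, log axis) for each of the 200 genes in the 6 ovulated libraries. Points are genes, thick bars medians, thin bars quartiles, and open diamonds the medians of the next 200 ranks. Medians are 6.04% to 21.7% in CKO and 2.82% to 3.31% in WT libraries.

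To lessen the lean that comes from choosing on WT values, the genes were chosen again with each ovulated WT library left out, and that library was then read. The median share in the library left out was 3.75%, 3.34% and 3.18%, close to the 3.12%, 3.34% and 3.31% in the libraries that chose. The CKO medians for the same lists were 12.1%, 11.3% and 11.6%, and the single CKO libraries lay between 5.99% and 22.2%. All 3 CKO libraries were above the WT library left out in 146, 155 and 149 of the 200 genes. The share of all genes in this order was not computed, so nothing is read from these counts. The GV WT values still took part in each choice, so the lean is lessened and not removed. These lists shared 185, 188 and 177 genes with the 200.

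In direct comparison of ovulated oocytes, every CKO library was above every WT library in 129 of the 200 genes and below in 0, where 20.4% and 7.64% of all genes tested had these orders. The count was 129 without ovulated CKO 2 as well. By edgeR, 87 of 194 genes tested were called higher in ovulated CKO (6.44% of all genes tested) and 0 lower (1.4% of all genes), with 2 lower at an unadjusted p under 0.05. The choice of genes used the ovulated WT values, so nothing is read from these counts. The same holds wherever a single gene is said to be apart, above or overlapping between the ovulated genotypes, which is a description only.

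At the GV stage, before the loss, the 200 mRNAs were near the same level in both genotypes. The mean was lower in GV CKO than in GV WT oocytes for 104 genes and higher for 96, with a median log2 difference of -0.03, against 0.12 over eligible genes. edgeR called 0 of 199 genes higher (0.00813% of all genes tested) and 0 lower (0.00813%), and at unadjusted p under 0.05 it gave 2 higher and 4 lower. Groups did not overlap in 6 genes, named after their values were seen. Gm29797, Grhpr and Atp6v1e1 were higher in every GV CKO library (1.76% of all genes tested), and Rapgef3, Aldoa and Chrng were lower (1.37%). GV WT values are part of the choice as well, and these counts are a description.

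The 200 genes fell into 4 ranges of the CKO share. It was at or under 4.75%, the WT limit, in 14 genes, up to 10% in 66, up to 25% in 96 and above 25% in 24. Without ovulated CKO 2 these numbers were 51, 92, 49 and 8. Taking ovulated CKO 1 alone, 75 genes were within the WT limit and 8 above 25%, and in ovulated CKO 2 alone 9 were within it and 84 above 25%.

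**Figure D3:**
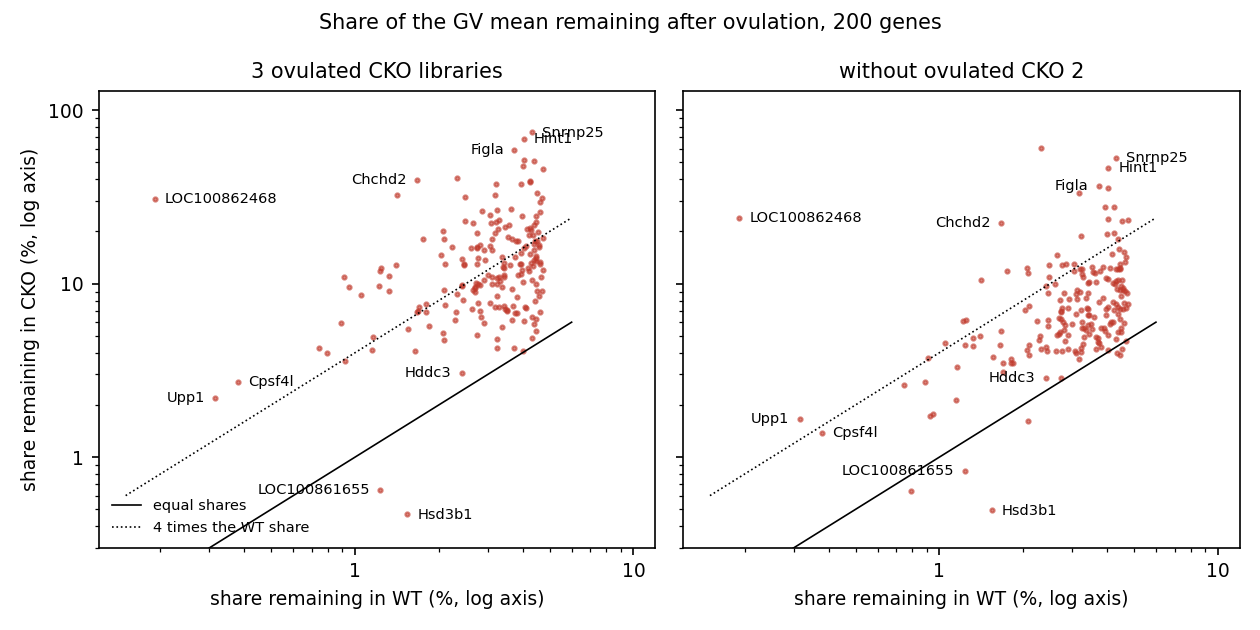
Share remaining in CKO against share remaining in WT (both %, log axes) for the 200 genes, with all 3 ovulated CKO libraries on the left and without ovulated CKO 2 on the right. The solid line marks equal shares and the dotted line 4 times the WT share, and 198 genes lie above the solid line on the left and 192 on the right.

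The 4 most abundant transcripts per length had shares of 3.05% to 5.35% remaining in CKO and 2.42% to 4.48% in WT, while Padi6, the fifth, had 20.7% in CKO and 4.16% in WT. Clec16a (chromosome 16, 10545309 to 10744878), known as a regulator of mitophagy and endosomes, had 2634, 2803 and 2232 CPM in ovulated CKO against 39030, 45286, 80655 and 75912 CPM in GV CKO libraries. In WT it had 2507, 3010 and 1841 CPM in ovulated against 86956, 52682, 80690 and 83874 CPM in GV libraries. Its share remaining was 4.25% in CKO and 3.23% in WT, and within CKO it fell by 5.08 (log2, SE 0.52, edgeR adjusted p = 1.17e-05). The ovulated genotypes overlapped, and ovulated CKO 2 did not stand out. Hexdc, a hexosaminidase, had 1489, 1487 and 1400 CPM in ovulated CKO and 1689, 1880 and 1268 CPM in ovulated WT libraries, with shares of 4.86% in CKO and 4.31% in WT. Hddc3, a hydrolase of the HD domain family, had 818, 864 and 607 CPM in ovulated CKO and 827, 844 and 514 CPM in ovulated WT libraries, with shares of 3.05% in CKO and 2.42% in WT. Dnajc14, a co-chaperone of the endoplasmic reticulum, had shares of 5.35% in CKO and 4.48% in WT. All 4 fell in CKO, none of their values was whole, and per length they were the 4 most abundant of the 200 genes, with GV WT means of 22700, 13034, 10613 and 4017 FPKM for Clec16a, Hexdc, Hddc3 and Dnajc14.

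By abundance, the 17 genes with at least 1000 CPM in GV WT had a median share of 6.84% in CKO and 3.23% in WT. The 49 genes of 100 to 1000 CPM had 10.9% in CKO and 3.23% in WT, and the 134 genes under 100 CPM had 13.1% in CKO and 3.30% in WT. Without ovulated CKO 2 the CKO medians were 4.82%, 5.94% and 7.32% in that order.

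A pair of genes had a lower share in CKO than in WT, both with few counts after ovulation. Hsd3b1, a steroid dehydrogenase, had 0, 0 and 0.0368 CPM in ovulated CKO against 25.5, 32.9, 34.8 and 2.45 CPM in GV CKO libraries, and 0.110, 0 and 0.225 CPM in ovulated WT against 31.8, 14.4, 1.95 and 6.47 CPM in GV WT libraries. Its 1 count in ovulated CKO is 0.0511% of the GV CKO mean, with an exact 95% Poisson interval of 0.00129% to 0.285% that covers counting error only. The predicted gene LOC100861655 had 1.93, 0.338 and 0.468 CPM in ovulated CKO against 27.7, 186, 212 and 199.6 CPM in GV CKO libraries. In WT it had 2.81, 0.712 and 4.71 CPM in ovulated against 272, 131, 239 and 279.7 CPM in GV libraries, and none of its values was whole.

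The 10 mRNAs with the highest CKO shares, predicted genes left aside, had 12.6 to 697 CPM in GV WT oocytes. Gsto2, described above, is the one at 12.6 CPM. Its CKO share of 40.6% rests on single libraries, with 119%, 1.28% and 1.28% in ovulated CKO 1, 2 and 3. Hint1 (chromosome 11, 54866383 to 54870506), a purine nucleotide hydrolase, had 57.2, 169 and 81.2 CPM in ovulated CKO against 167, 169, 149.8 and 112 CPM in GV CKO libraries. In WT it had 6.04, 4.92 and 3.48 CPM in ovulated against 113, 153, 118 and 104 CPM in GV libraries. The CKO stages overlapped through ovulated CKO 2. Its share remaining was 68.7% in CKO (46.4% without ovulated CKO 2) and 4.03% in WT. Within CKO it fell by 1.03 (log2, SE 0.35, edgeR adjusted p = 0.0218), a call lost with library totals (adjusted p = 0.262) and without any 1 of ovulated CKO 1 (0.106), ovulated CKO 3 (0.0974), GV CKO 2 (0.0530) or GV CKO 3 (0.0522).

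Chchd2, a small protein of the mitochondrial intermembrane space, differed most between genotypes among the genes with over 100 CPM in GV oocytes. It had 97.4, 398 and 143 CPM in ovulated CKO against 418, 607, 574 and 548 CPM in GV CKO libraries, and 11.7, 7.63 and 4.63 CPM in ovulated WT against 488, 499, 489 and 462 CPM in GV WT libraries. Every ovulated CKO library was above every ovulated WT library and below every GV CKO library, the last by a small margin for ovulated CKO 2. Its share remaining was 39.6% in CKO (22.4% without ovulated CKO 2) and 1.67% in WT, and within CKO it fell by 1.89 (log2, SE 0.43, edgeR adjusted p = 0.00243). None of its values was whole. Ninj2, an adhesion protein, had 244, 581 and 267 CPM in ovulated CKO against 913, 1177, 865 and 757 CPM in GV CKO libraries, and 35.6, 25.6 and 27.1 CPM in ovulated WT against 595, 886, 655 and 650.0 CPM in GV WT libraries. It fell by 1.85 in CKO (log2, SE 0.36, edgeR adjusted p = 0.000802), with a share of 39.2% in CKO and 4.24% in WT.

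Plekhh3, Limd2, Speer4c and Dpep3 completed these 10, with CKO shares of 51.0%, 47.7%, 46.1% and 38.8%, with WT shares of 4.39%, 4.02%, 4.74% and 4.26%. Without ovulated CKO 2 their CKO shares were 18.03%, 23.7%, 23.3% and 19.5%. All 4 fell in CKO, by 1.51, 1.59, 1.70 and 1.86 on the log2 scale. With library totals all 4 calls were lost (edgeR adjusted p = 0.229, 0.120, 0.114 and 0.0592). The calls of Plekhh3, Limd2 and Speer4c were also lost without ovulated CKO 1 (0.139, 0.0559 and 0.0613) or ovulated CKO 3 (0.144, 0.0616 and 0.0619), and that of Plekhh3 without GV CKO 1 (0.0555) or GV CKO 2 (0.0944).

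Several egg genes kept more than 10% of their GV level in CKO. Zp2 (chromosome 7, 120126762 to 120145291) encodes the zona pellucida glycoprotein that sperm bind. It had 609, 1151 and 665 CPM in ovulated CKO against 2197, 3705, 3631 and 3715 CPM in GV CKO libraries, and 163, 152 and 101 CPM in ovulated WT against 3352, 3251, 3209 and 4134 CPM in GV WT libraries. All 4 groups were apart except for the 2 GV groups. Within CKO it fell by 2.56 (log2, SE 0.40, edgeR adjusted p = 0.000187), with a share of 24.4% in CKO (19.2% without ovulated CKO 2) and 3.99% in WT. Figla, the transcription factor that activates the zona genes, had 8.84, 27.2 and 10.2 CPM in ovulated CKO against 28.9, 33.4, 19.9 and 22.3 CPM in GV CKO libraries, and 0.989, 0.918 and 0.450 CPM in ovulated WT against 16.3, 34.7, 25.6 and 17.7 CPM in GV WT libraries. It fell by 1.25 in CKO (log2, SE 0.38, edgeR adjusted p = 0.0133), a call lost with library totals (0.182) and without ovulated CKO 1 (0.0674) or ovulated CKO 3 (0.0726).

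Padi6, part of the subcortical maternal complex, had 491, 1033 and 464 CPM in ovulated CKO against 1774, 1674, 3959 and 5419 CPM in GV CKO libraries, and 195.99, 179 and 191 CPM in ovulated WT against 5321, 2912, 4310 and 5621 CPM in GV WT libraries. It fell by 2.85 in CKO (log2, SE 0.53, edgeR adjusted p = 0.000611). GV CKO 1 and GV CKO 2, which stood apart in their distribution, held its lowest levels of all 8 GV libraries. Zar1l, a relative of the maternal factor Zar1, had 14.0, 126 and 31.7 CPM in ovulated CKO against 503 to 697 CPM in GV CKO libraries, and 15.3, 14.3 and 16.1 CPM in ovulated WT against 471 to 557 CPM in GV WT libraries. The share of Zar1l was 9.94% in CKO, 3.98% without ovulated CKO 2 and 3.10% in WT. Sorted by role after the values were seen, the 6 oocyte and egg genes had the highest median CKO share of the 11 groups. It was 16.9% in CKO (12.5% without ovulated CKO 2) and 3.58% in WT. All 6 fell in CKO, as did 198 of the 199 genes tested.

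**Figure D4:**
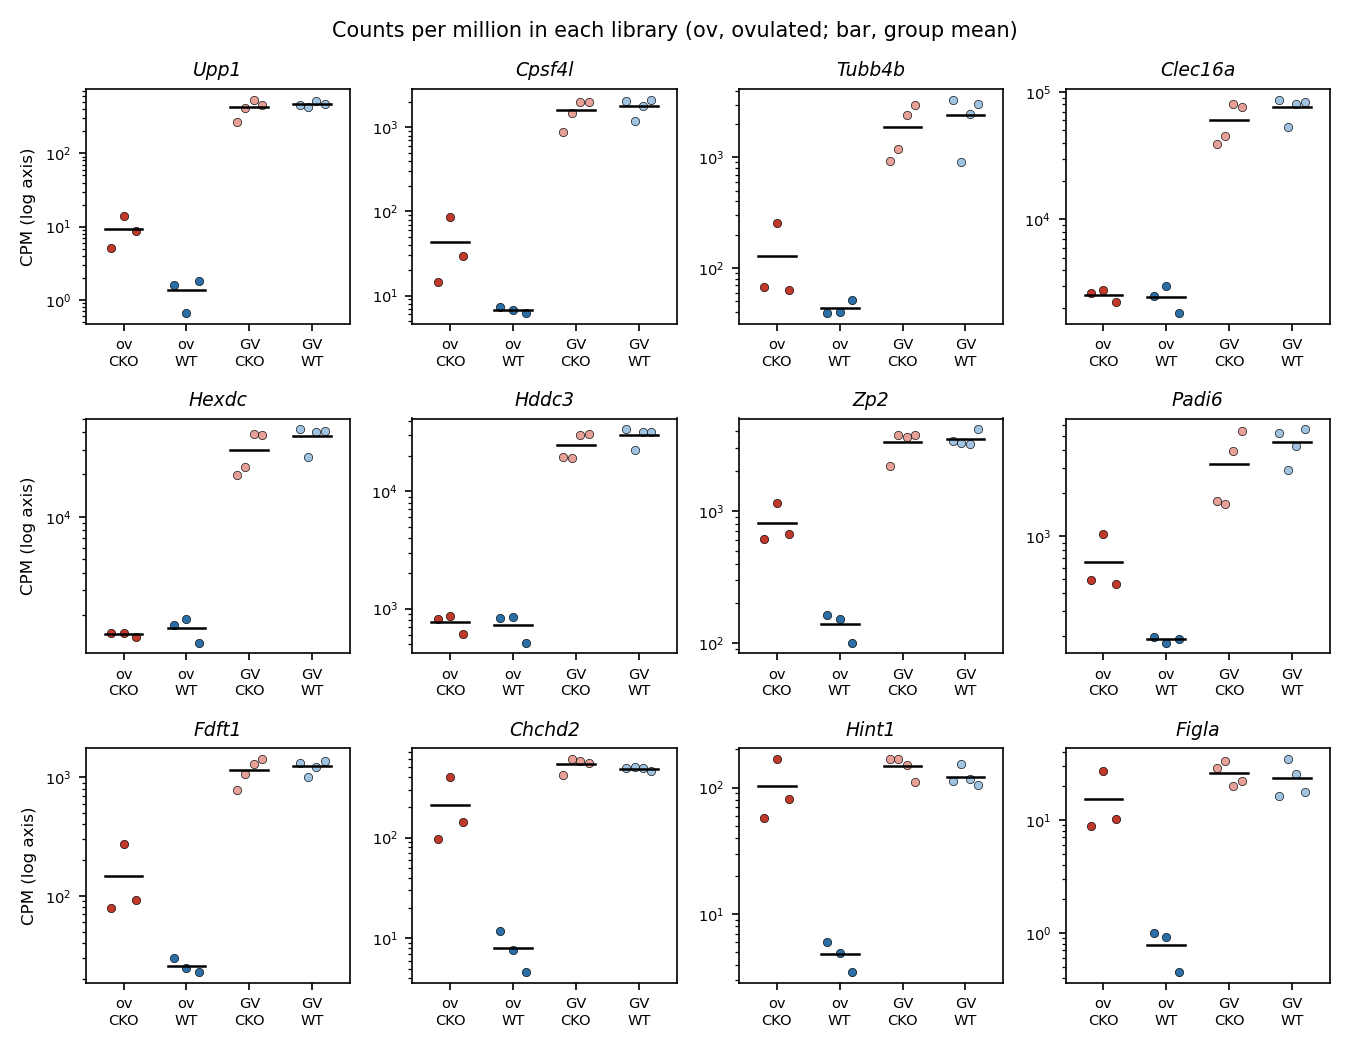
Level in CPM (log axes, each with its own range) of 12 of the 200 genes in each library of ovulated CKO, ovulated WT, GV CKO and GV WT oocytes, with bars at group means. Clec16a, Hexdc and Hddc3 overlap between the ovulated genotypes, while Zp2, Padi6, Chchd2, Hint1 and Figla are higher in every ovulated CKO than in every ovulated WT library. The WT levels took part in choosing the genes, so these orders are a description.

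Genes of RNA processing and ribosome biogenesis had the lowest median CKO share of the 11 role groups with all libraries, but not without ovulated CKO 2, when metabolic enzymes (5.25%) and the cytoskeleton (5.32%) were lower. These 20 genes were at 7.32% in CKO (5.67% without ovulated CKO 2) and 3.22% in WT, and 19 fell in CKO, with Snrnp25 as the exception. Ppil3, a cyclophilin-like prolyl isomerase, had 2.32, 8.58 and 3.47 CPM in ovulated CKO against 70.1 to 181 CPM in GV CKO libraries, and 0.231 to 1.12 CPM in ovulated WT against 81.6 to 150.1 CPM in GV WT libraries. Ddx39b, a helicase of splicing and mRNA export, had 6.04, 18.8 and 4.68 CPM in ovulated CKO against 49.7 to 86.7 CPM in GV CKO libraries. Cnot10, a subunit of the CCR4-NOT complex, had 1.29, 7.00 and 4.72 CPM in ovulated CKO against 16.7 to 49.5 CPM in GV CKO libraries, and 1.87, 1.21 and 2.14 CPM in ovulated WT against 38.7 to 41.1 CPM in GV WT libraries. All 3 fell in CKO (edgeR adjusted p = 1.04e-05 for Ppil3, 7.71e-05 for Ddx39b and 0.000138 for Cnot10).

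Metabolic enzymes made up 22 of the 200 genes, and all 22 fell in CKO, as did 198 of the 199 genes tested. Their median share was 9.73% in CKO (5.25% without ovulated CKO 2) and 3.04% in WT. Tpi1 and Aldoa are glycolytic enzymes. Tpi1 had 0.862, 10.3 and 1.99 CPM in ovulated CKO against 60.5 to 113 CPM in GV CKO libraries, and 2.27, 1.32 and 1.46 CPM in ovulated WT against 68.6 to 93.0 CPM in GV WT libraries. Aldoa had 2.98, 7.56 and 2.98 CPM in ovulated CKO against 61.7 to 74.0 CPM in GV CKO libraries. Both overlapped between the ovulated genotypes, and their CKO shares were 4.74% and 6.81% (1.61% and 4.56% without ovulated CKO 2).

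Mdh2 and Idh3b encode enzymes of the mitochondrial citrate cycle. Mdh2 had 5.71, 26.2 and 10.4 CPM in ovulated CKO against 133 to 177 CPM in GV CKO libraries, and 3.41 to 4.53 CPM in ovulated WT against 129 to 178 CPM in GV WT libraries. Idh3b had 0.970, 2.01 and 1.18 CPM in ovulated CKO against 12.6 to 17.6 CPM in GV CKO libraries. Mdh2 fell by 4.01 on the log2 scale within CKO (edgeR adjusted p = 2.13e-05). Idh3b fell by 3.89 on that scale (edgeR adjusted p = 1.78e-05). In lipid synthesis, Fdft1, which makes squalene for sterols, had 79.1, 273 and 91.9 CPM in ovulated CKO against 777 to 1433 CPM in GV CKO libraries, and 29.95, 24.8 and 22.8 CPM in ovulated WT against 998 to 1379 CPM in GV WT libraries. Agpat2, which makes phosphatidic acid, had 1.90, 10.6 and 1.03 CPM in ovulated CKO and 0.513, 0.330 and 0.150 CPM in ovulated WT libraries, so all CKO libraries were above all WT libraries.

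The 8 mitochondrial proteins outside the enzymes all fell in CKO, as did 198 of the 199 genes tested. Their median share was 10.4% in CKO (6.87% without ovulated CKO 2) and 2.69% in WT. Besides Chchd2 they include Smim20, a factor of cytochrome c oxidase assembly, which had 3.16, 15.3 and 3.32 CPM in ovulated CKO against 99.5 to 161 CPM in GV CKO libraries, and 1.28, 0.808 and 0.974 CPM in ovulated WT against 112 to 149.6 CPM in GV WT libraries. Of the 3 glutathione enzymes, Gpx4, which reduces lipid hydroperoxides, had 4.46, 9.24 and 3.61 CPM in ovulated CKO against 35.6 to 56.9 CPM in GV CKO libraries, and 1.06, 0.844 and 1.16 CPM in ovulated WT against 33.7 to 65.9 CPM in GV WT libraries. It fell by 3.37 in CKO (log2, SE 0.40, edgeR adjusted p = 2.57e-05), and its ovulated genotypes did not overlap.

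Genes of membrane traffic and the lysosome numbered 16, and all fell in CKO, as did 198 of the 199 genes tested. Their median share was 11.9% in CKO (6.98% without ovulated CKO 2) and 3.24% in WT. Stx5a, a SNARE of the Golgi, was the lowest, at 8.80, 37.4 and 8.91 CPM in ovulated CKO against 339 to 706 CPM in GV CKO libraries, and 6.19, 5.47 and 5.02 CPM in ovulated WT against 485 to 683 CPM in GV WT libraries. Derl3, a factor of protein export from the endoplasmic reticulum for degradation, was the highest, at 7.33, 47.6 and 16.3 CPM in ovulated CKO against 55.3 to 74.4 CPM in GV CKO libraries, and 3.15, 1.73 and 1.87 CPM in ovulated WT against 66.8 to 83.7 CPM in GV WT libraries. Atp6v0c and Atp6v1e1, subunits of the proton pump of lysosomes, had shares of 16.6% and 14.4% in CKO (8.78% and 8.46% without ovulated CKO 2) and 2.81% and 4.48% in WT. The coat protein Copz1 and the SNARE Vamp8 had shares of 16.1% and 11.8% in CKO (10.6% and 7.86% without ovulated CKO 2) and 4.04% and 4.22% in WT.

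Tubulins were represented by Tuba4a and Tubb4b. Tubb4b had 67.7, 255 and 63.0 CPM in ovulated CKO against 924, 1196, 2435 and 2948 CPM in GV CKO libraries, and 39.3, 40.4 and 51.7 CPM in ovulated WT against 3317, 916, 2438 and 3058 CPM in GV WT libraries. The 3 GV libraries that stood apart held its 3 lowest GV levels. It fell by 4.49 in CKO (log2, SE 0.64, edgeR adjusted p = 9.40e-05). Tuba4a had 8.16, 27.5 and 6.30 CPM in ovulated CKO against 172 to 494 CPM in GV CKO libraries, and 4.50, 6.72 and 3.11 CPM in ovulated WT libraries, overlapping with CKO. In DNA replication, the single-strand binding subunit Rpa2 had 9.41, 36.8 and 7.51 CPM in ovulated CKO and 3.88, 3.56 and 1.69 CPM in ovulated WT libraries, and the thymidylate synthase gene Tyms 8.73, 34.6 and 13.3 CPM in ovulated CKO and 4.87, 3.56 and 5.54 CPM in ovulated WT libraries. Both fell in CKO, by 3.50 and 3.88 on the log2 scale (edgeR adjusted p = 8.98e-05 and 2.47e-05).

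Among the other role groups, 12 genes of transcription and chromatin had a median share of 12.2% in CKO (7.63% without ovulated CKO 2) and 3.92% in WT. Kat8, at the limit of the choice, had 12.3, 35.2 and 13.6 CPM in ovulated CKO against 105 to 224 CPM in GV CKO libraries, and 11.5, 6.75 and 5.32 CPM in ovulated WT against 159 to 173 CPM in GV WT libraries. The 8 genes of the ubiquitin pathway had 12.9% in CKO (7.77% without ovulated CKO 2) and 4.03% in WT. Otub1, a deubiquitinase, had 6.86, 31.4 and 13.9 CPM in ovulated CKO against 108 to 157 CPM in GV CKO libraries, and 3.55, 3.34 and 2.66 CPM in ovulated WT against 78.5 to 169.5 CPM in GV WT libraries. Both Kat8 and Otub1 fell in CKO (edgeR adjusted p = 2.51e-05 and 4.76e-05). Their ovulated genotypes did not overlap, as in 129 of the 200 genes, an order that the choice of genes leans toward. Mfsd2a, a transporter of lipids that carry docosahexaenoic acid, had 19.0, 80.3 and 21.8 CPM in ovulated CKO and 6.30, 4.59 and 2.74 CPM in ovulated WT libraries, with shares of 12.2% in CKO (6.20% without ovulated CKO 2) and 1.24% in WT.

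Of the gene lists, those with 3 or more members among the 200 were vesicle traffic and lysosome (4 of 40 eligible genes), the citrate cycle and fatty acid oxidation (3 of 26) and oocyte identity (3 of 29), where 3.46% of all eligible genes were members. In CKO, 20 of 51 genes tested on the vesicle and lysosome list fell and 7 rose (edgeR), where 27.9% of all genes tested fell and 23% rose. On the citrate cycle list 19 of 34 fell and 1 rose, and on the oocyte identity list 13 of 31 fell and 6 rose, against the same shares of all genes. The lists for mRNAs recruited to translation during maturation (18 eligible genes), mRNA storage and translational control (23), the meiotic and mitotic cell cycle (32), the spindle (44) and actin (28) held 0 members. Lists of these sizes would hold few members at 3.46%, so nothing is read from those counts. The lists are also incomplete, since Pdlim2 and Cdc42ep2, both of the actin cytoskeleton, and the kinetochore gene Cenpt were among the 200 and on none of them. On the list of recruited mRNAs 1 gene fell in CKO and 7 of 18 rose, against 27.9% and 23% of all genes.

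Applied to CKO libraries, the same rule gave a largely shared list. Of its 200 genes 114 were among the 200 chosen in WT, 57% of each list, from separate libraries. In the CKO order 156 of the 200 genes were within the first 400 and 181 within the first 800, and 197 reached the minimum level in GV CKO. The CKO list had a median share of 9.62% in CKO and 4.26% in WT, with Hsd3b1, LOC100861655, Upp1, Cpsf4l and Hddc3 in its first 5 places.

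The genes that follow the 200 in the WT order are given as a description only. That order is cut on the WT ratio, which leans the ratio of the CKO to the WT share to fall along it. How much of the fall comes from this was not tested. The median ratio of the CKO to the WT share, on the log2 scale, was 1.94 for the 200 genes. It was 1.49 for the next 200 ranks and -0.31 for the last 2585. Without ovulated CKO 2 these medians were 1.11, 0.82 and -0.27. CPM is relative to the library total, so a higher share of some genes lowers that of others by construction, and the RNA content of an oocyte was not measured.

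The 200 mRNAs had short 3' UTRs with few of the motifs searched, properties that the choice did not use and that the next 200 ranks had as well. The annotated 3' UTR had a median of 377 bases (quartiles 194 and 952) in the 200 genes, against 366 in the next 200 ranks and 1026 in all 5585 other eligible genes. The coding sequence had a median of 996 bases in the 200 genes against 1395 in the other genes, and the 3' UTR a GC content of 49.0% against 42.3%. A CPE (TTTTAT or TTTTAAT) occurred in the 3' UTR of 57 of 194 genes (29.4%), against 23.7% in the next 200 ranks and 66.3% in the other genes. Per kilobase of 3' UTR there were 0.789 CPEs in the 200 genes against 1.48 in the other genes, so the density was lower as well.

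Within the last 100 bases, where elements close to the poly(A) signal lie, a CPE occurred in 9.36% of the 3' UTRs of the 200 genes that were long enough, 7.88% of the next 200 ranks and 22.6% of the other genes. The AU-rich element TATTTAT occurred in 13.9% of the 200 genes, 12.4% of the next 200 ranks and 30.1% of the other genes, and the Pumilio element TGTANATA in 12.9%, 10.8% and 27.2% in that order. The shares with these last motifs are not adjusted for the length of the 3' UTR. A poly(A) signal (AATAAA or ATTAAA) lay in the last 50 bases in 56.2% of the 200 genes. It did so in 73.7% of the next 200 ranks and 80.5% of the other genes. Except for the last 100 bases, motif shares are over genes with an annotated 3' UTR, 194 of the 200. All motifs were searched on the sense strand only, and TTTTAAT can overlap with AATAAA. Annotated ends may differ from those used in oocytes, and a missing match says only that the letters are not in the annotated sequence. Within the 200 genes, the 24 with a CKO share above 25% had a median 3' UTR of 246.5 bases and coding sequence of 717 bases. The 14 within the WT limit had medians of 936 and 1068 bases. These medians rest on 22 and 13 genes with an annotated transcript. Without ovulated CKO 2 the ranges held 8 and 51 genes. Lengths for those were not computed, so nothing is read from this difference.

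**Figure D5:**
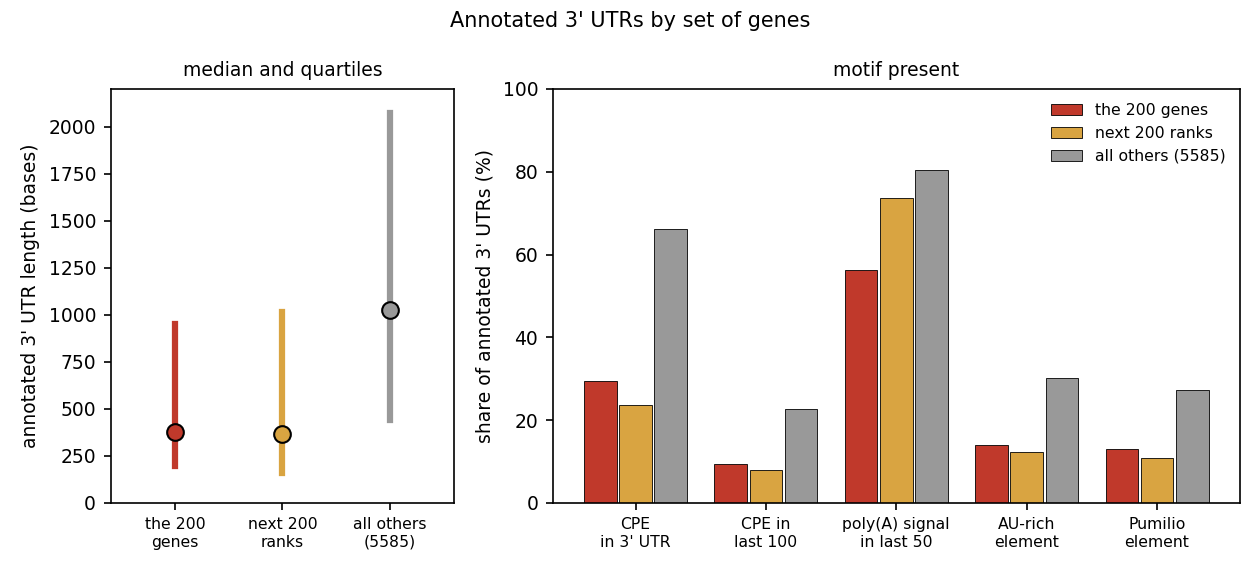
Left, median (points) and quartiles (bars) of the annotated 3' UTR length in bases for the 200 genes, the next 200 ranks and all 5585 other eligible genes. Right, share of annotated 3' UTRs (%, from 0) that hold each motif: a CPE is in 29.4%, 23.7% and 66.3% of these sets.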

How the data were processed

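Gene tables of 14 SMART-Seq2-type libraries of mouse oocytes were used. Per the file headers, the authors deposited for each stage an estimated count per gene and library, not normalised. Of values above 0, 17.6% at the GV stage and 18.3% after ovulation were further than 0.001 from a whole number. FPKM values, scaled for length and depth per the file headers, were deposited as well. The submitters' processing notes name the build mm10 and, in what was used here, no aligner or counter. The labels speak of single-cell samples and do not give the oocytes or animals in a library, so p-values measure the spread between libraries only.

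CPM used library totals. Estimated counts were rounded and tested with edgeR 4.0.16 (limma 3.58.1, R 4.3.3; filterByExpr, TMM, robust quasi-likelihood F test, Benjamini-Hochberg over all genes), with CKO stages fitted on CKO libraries alone. DESeq2 1.42.0, other scalings, filters, FPKM on a log2 scale with limma-trend, and left-out libraries were alternatives. The counts without ovulated CKO 2 were added after seeing the data.

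The 200 genes, the 34 gene lists and the role groups were chosen with earlier results of these data known. Genes to name were taken from WT ranks 1 to 16, the limit of the choice, the 10 highest and 5 lowest CKO shares, the 5 highest GV WT FPKM values, up to 4 genes per list and genes not called. Identifiers of all 200 matched RefSeq GRCm38.p6, whose coordinates are given, and nearly all had a GENCODE M21 transcript. One gene that the rule for named genes selects is not reported here.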

Additional observations from a re-analysis of the deposited data

Results flagged for a closer look

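Among 112 sets of 4 GV libraries examined (the named genes and the summed share, in each genotype), 10 had a library whose gap to the nearest of the others exceeded the critical value of Dixon's test at 4 samples, where chance flags about 1 in 20. In GV CKO oocytes LOC100861655 was low in 1 library, at 27.7 CPM against 186 to 212 CPM, and Zp2 at 2197 CPM against 3631 to 3715 CPM, both in GV CKO 1. Gsto2 was high in GV CKO 1, at 30.6 CPM against 0.0736 to 0.150 CPM, and Gpx4 in GV CKO 2, at 56.9 CPM against 35.6 to 38.6 CPM. In GV WT oocytes 4 genes were low in GV WT 2: Hddc3 at 22322 CPM against 32120 to 33798 CPM, Hexdc at 26441 CPM against 40401 to 42037 CPM, Ptgis at 26.3 CPM against 32.1 to 33.1 CPM, and Tpi1 at 68.6 CPM against 89.4 to 93.0 CPM. Zar1l was high in GV WT 2, at 557 CPM against 471 to 478 CPM, and Zp2 in GV WT 4, at 4134 CPM against 3209 to 3352 CPM. GV CKO 1, GV CKO 2 and GV WT 2 are the libraries with the flatter distribution, and the part of that in these values was not tested.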

How the results depend on the processing

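The falls in CKO kept their count within 1.5 times under every alternative run, with 188 (library totals) to 198 of the 200 genes called. Leaving out single CKO libraries, or GV CKO 1 and 2 together, gave 192 to 198 calls and a median log2 fold change of -4.35 to -3.34. Over all genes 3531 fell and 2911 rose, and falls numbered 2238 with library totals, 2315 with log2(FPKM + 0.1) and 2335 with log2(FPKM + 1). Left-out libraries gave 3040 to 3848 falls and 2290 to 3121 rises over all genes. DESeq2 called 3624 falls and 3279 rises. For 54 named genes 838 of 864 alternatives gave the same call, 24 lost it and 2 gained it, with no change of direction. With the replicate number as a block 198 of the 200 genes fell (3167 falls and 2338 rises over all genes), LOC100861655 lost its call (adjusted p = 0.0875) and Snrnp25 gained one (0.0485). The numbers did not pair the libraries: deviations of same-numbered CKO libraries correlated at 0.006, -0.088 and 0.055, and no ovulated library correlated best with its own number.

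The choice in WT kept 155 (no symbols left out) to 193 (pseudocount 0.01) of the 200 genes under other settings, and 172 to 195 when 1 WT library, or GV WT 2 with ovulated WT 3, was left out. The log2 ratio of the CKO to the WT share was 1.497 with a pseudocount of 1, and 1.11 to 2.24 with libraries left out. Without ovulated CKO 2 the median CKO share was 6.80% in place of 12.0%, 51 genes in place of 14 were within the WT limit and 8 in place of 24 were above 25%. In the other 2 counts, 197 genes in place of 188 had all ovulated below all GV CKO libraries, and 129 in both cases had all ovulated CKO above all WT libraries. The lists chosen in CKO and WT shared 101 to 127 genes with a CKO library left out, and 109 (no symbols left out) to 129 (pseudocount 1) under other settings. The GV difference between genotypes had a median of -0.14 with TMM and -0.04 to 0.01 with libraries left out. At 26.6 to 28.8 reads per CPM, ovulated WT levels under 0.1 CPM rest on a few reads.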
